A study of Mus musculus with 60 samples.

Results

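The comparison described here sets D7E against D7F, 2 mouse cell lines that both carry a transfected mutant Pabpn1. The labels give D7E a high and D7F a low level of it. Members were chosen by title: the 24 arrays whose titles begin with D7E or D7F, of 60 arrays in the series. They hold 6 of the 15 cultures, 3 of D7E and 3 of D7F. Each culture was hybridised to 2 spotted array designs, called part I and part II in the labels, and on each part once with either dye (Cy5 or Cy3), beside a common RNA reference from IM2. The other lines are WTA (high) and WTD (low), which were transfected with the wild-type gene, and IM2, the untransfected line. The labels name oculopharyngeal muscular dystrophy as the disease in view, and do not give the mutation, the promoter, the tissue or the clone. Since each genotype and level is 1 line, the level of mutant Pabpn1 and any other property of the line cannot be told apart.

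PABPN1 is the nuclear poly(A)-binding protein. It coats the growing tail of a new messenger RNA, stimulates the poly(A) polymerase, and takes part in the choice of polyadenylation sites and in the turnover of nuclear RNA. Expansion of its alanine tract is the known cause of oculopharyngeal muscular dystrophy, in which the protein gathers in the nuclei of muscle fibres.

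A level below is the log2 ratio of a culture to the IM2 reference, averaged over its 2 dye orientations, and a difference is the mean level of D7E minus that of D7F. A probe passed when its p from limma, adjusted by the method of Benjamini and Hochberg over all 9719 probes tested on both parts, was below 0.05. Lines whose cultures did not overlap are those where every culture of one line lay above every culture of the other. In bulk RNA, fewer cells with a transcript and less transcript per cell cannot be told apart. As the values are ratios to IM2 RNA, they do not show whether a tissue's defining markers are present in the cells.

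Pabpn1 itself came first as a check of the labels. Its level was 1.71, 1.45 and 1.67 in the 3 D7E cultures, against 1.04, 0.83 and 0.87 in the 3 D7F cultures. All D7E cultures lay above all D7F cultures, in the order the labels give. That order rests on reading the ratios as culture over reference, which was inferred from this same probe. The difference was 0.69 (SE 0.14, 95% interval 0.39 to 1.00), which is 1.62-fold on the linear scale, and its adjusted p was 0.0973, so it did not pass over the whole table. An exact permutation test of the 6 cultures gave a two-sided p of 0.1, the smallest that 3 cultures against 3 allow. The difference was 0.62 on the Cy5 arrays and 0.76 on the Cy3 arrays. WTA exceeded WTD by a similar amount, 0.76 (adjusted p = 0.0159), and the 2 differences were 0.07 apart on the log2 scale (adjusted p = 0.926). By mean level the lines stood in the order WTA (2.19), D7E (1.61), WTD (1.43), D7F (0.92) and IM2 (-0.18). The position of the probe is not given in the sources used here, so transfected and endogenous transcript cannot be told apart, and protein was not analysed here.

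Few transcripts separated the mutant lines. Of the 9719 probes, 22 passed (0.226%), 12 of them higher (0.123%) and 10 lower (0.103%) in D7E, and 20 of the 22 carry a gene name. They span ion channel subunits, cell cycle inhibitors, a calcium buffer, matrix and caveolar proteins and enzymes, with sizes between 0.66 and 1.92 on the log2 scale. In all 22 the cultures of the 2 lines did not overlap and the difference had the same sign with either dye. The 22 were chosen by p on the same culture means, which favours both, so neither is separate support. The direction of the ratios (culture over reference) was inferred from Pabpn1 on part I alone. If part II ran the other way, its 5 probes among the 22 (those of Loxl2, Prr32, Cox8c and Ces2g and an unnamed one) would change sign, and 9 would be higher and 13 lower in D7E. Without adjustment, 936 probes (9.63%) had p under 0.05, of which 298 (3.07%) were higher and 638 (6.56%) lower in D7E. Among the 7730 probes measured in all 6 cultures, the lines did not overlap at 1424 (18.4%), with 492 (6.36%) higher and 932 (12.1%) lower in D7E. The median difference over all probes was -0.03 and the median standard error was 0.21.

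Of the D7E and D7F arrays, between 82.7% and 99.6% of rows held a value, and between 1.30% and 18.2% of those values sat at the limits of the deposited scale, where they were left out. Over the probes tested, the cultures of D7E correlated with each other at r = 0.452 to 0.726 and those of D7F at r = 0.429 to 0.637. The 2 dye orientations of a culture correlated at only r = 0.0477 to 0.255. That range was taken over all probes with values inside the limits, tested or not, so the ranges cover different probes. For the 311 genes with more than 1 tested probe, the difference at one probe correlated with that at another at r = 0.072 across genes, so a gene stands here for the probe named.

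**Figure D1:**
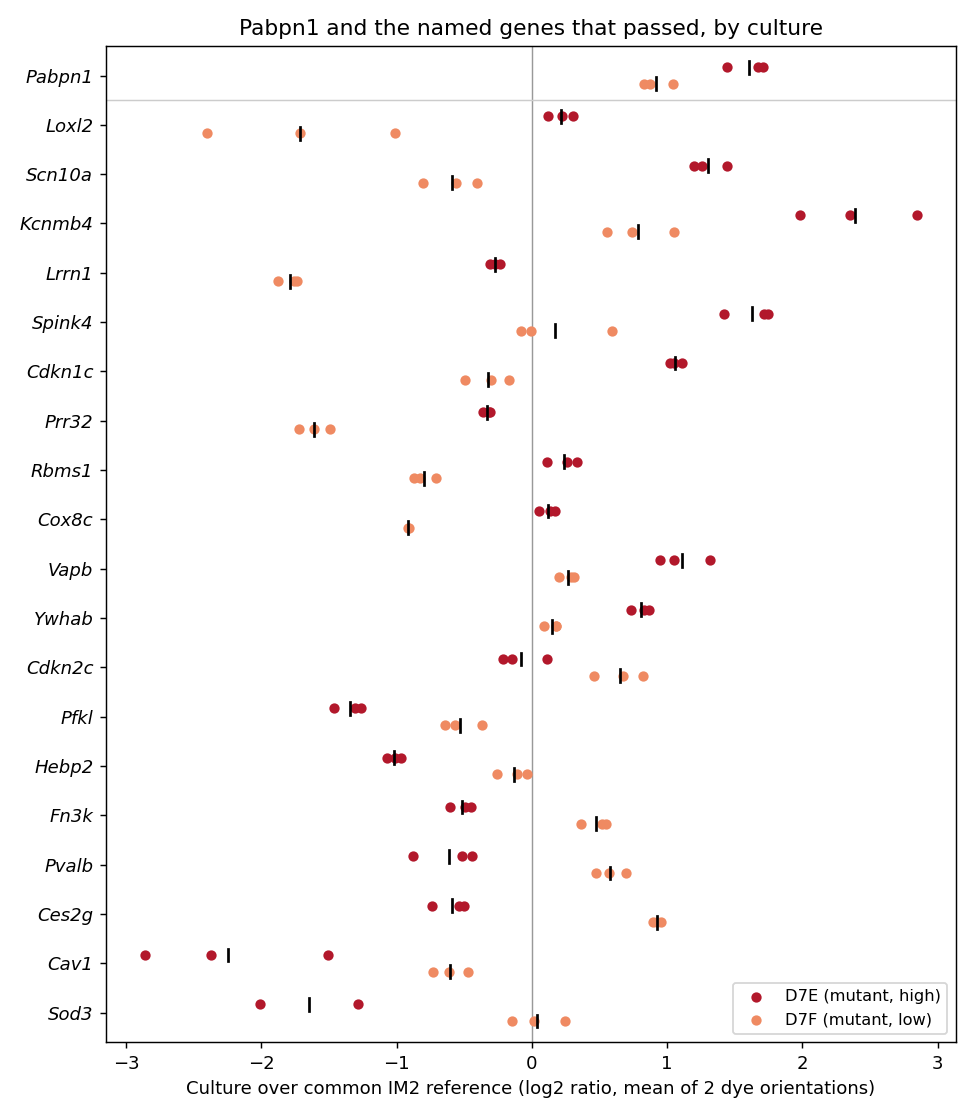
Level of Pabpn1 and of 19 named genes that passed, as log2 ratio of a culture to the IM2 reference (horizontal axis), with D7E above D7F in each row. Each point is 1 culture and each black bar the mean of a line. In every row the D7E and D7F points are separate, which the choice of genes by these same values favours. Pabpn1, at 1.61 against 0.92, is the row that did not pass.

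Among the genes higher in D7E were subunits of ion channels. Scn10a, a voltage-gated sodium channel subunit known from sensory neurons, stood at 1.26, 1.44 and 1.20 in D7E cultures, against -0.56, -0.81 and -0.40 in D7F cultures. Its difference was 1.89 (SE 0.20, 3.71-fold, adjusted p = 0.00171), and IM2, at 0.29, lay between the lines. Kcnmb4, an accessory subunit of the large-conductance calcium-activated potassium channel, stood at 1.98, 2.35 and 2.85 in D7E, against 0.74, 1.05 and 0.55 in D7F. Both mutant lines were above IM2 (-0.24), and D7E was 3.05-fold above D7F (difference 1.61, SE 0.25, adjusted p = 0.0236).

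Cell cycle inhibitors differed in opposite directions. Cdkn1c encodes a Cip/Kip inhibitor of cyclin-dependent kinases that is linked to the cell cycle exit of myoblasts. It stood at 1.02, 1.11 and 1.05 in D7E, against -0.17, -0.50 and -0.30 in D7F. The D7E cultures were close to each other, while D7F stood near IM2 (-0.22), and the difference was 1.38 (SE 0.15, 2.61-fold, adjusted p = 0.00171). Cdkn2c, an inhibitor of the cyclin D-dependent kinases, stood at -0.15, -0.21 and 0.11 in D7E, against 0.46, 0.82 and 0.67 in D7F. Here D7E stood near IM2 (0.06) and D7F above it, with a difference of -0.74 (SE 0.12, 1.67-fold lower in D7E, adjusted p = 0.0312). These were the 2 that passed of 21 tested genes on a list of Rb family members, inhibitors and D cyclins. Of all probes tested 0.226% passed. The median difference of the list was -0.03.

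For several genes it was D7F that lay apart from IM2. Loxl2, a lysyl oxidase-like enzyme that crosslinks collagen, stood at 0.30, 0.12 and 0.22 in D7E, near IM2 (0.01), against -1.01, -1.71 and -2.40 in D7F. The difference of 1.92 (SE 0.29, 3.80-fold, adjusted p = 0.0104) was the largest among the probes that passed, although the D7F cultures were spread over more than 1 log2 unit. Lrrn1, a leucine-rich repeat membrane protein, stood at -0.31, -0.28 and -0.24 in D7E, against -1.73, -1.87 and -1.76 in D7F (difference 1.51, SE 0.17, adjusted p = 0.00172). A second Lrrn1 probe, on part II, differed by only 0.21 (SE 0.22, adjusted p = 0.893) over 2 cultures of each line, so the probes of this gene disagree. Prr32, a proline-rich protein, stood at -0.32, -0.36 and -0.31 in D7E, against -1.49, -1.72 and -1.61 in D7F (difference 1.28, SE 0.15, adjusted p = 0.00171). A part II probe with no gene name showed the same layout, at -0.79, -0.51 and -0.84 in D7E, against -2.60, -2.41 and -2.61 in D7F, with the smallest adjusted p of all (difference 1.83, SE 0.16, adjusted p = 0.000225).

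The remaining genes that were higher in D7E had mixed roles. Spink4, a serine peptidase inhibitor, stood at 1.74, 1.72 and 1.42 in D7E, against 0.59, -0.01 and -0.08 in D7F (difference 1.46, SE 0.21, adjusted p = 0.0128). Rbms1, which binds single-stranded nucleic acid, stood at 0.34, 0.26 and 0.11 in D7E, against -0.82, -0.87 and -0.71 in D7F (difference 1.03, adjusted p = 0.00856). In Spink4 D7F stood near IM2 (0.02), and in Rbms1 D7E was the nearer line to IM2 (-0.02). Vapb, a membrane protein of the endoplasmic reticulum that tethers it to other organelles, stood at 1.32, 1.05 and 0.95 in D7E, against 0.20, 0.31 and 0.29 in D7F (difference 0.84, SE 0.14, adjusted p = 0.0356). Ywhab, an adaptor that binds phosphorylated proteins, stood at 0.87, 0.74 and 0.83 in D7E, against 0.18, 0.09 and 0.18 in D7F. Its difference of 0.66 (SE 0.10, 1.58-fold, adjusted p = 0.0151) was the smallest among the higher probes, with cultures of each line within 0.2 log2 units. Cox8c, an isoform of a cytochrome c oxidase subunit, was named after its values were seen, because culture 3 of D7F had no value for it. It stood at 0.13, 0.05 and 0.17 in D7E, against -0.92 and -0.91 in the other D7F cultures (difference 1.03, adjusted p = 0.0313), and with values at the limits kept the difference was -0.41.

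Among the genes lower in D7E, Cav1, the main coat protein of caveolae in many cell types, stood at -2.37, -2.86 and -1.50 in D7E, against -0.61, -0.48 and -0.73 in D7F. Both lines were below IM2 (0.02), and D7E was 3.12-fold below D7F (difference -1.64, SE 0.29, adjusted p = 0.0465). Sod3, the extracellular superoxide dismutase, stood at -2.01 and -1.28 in the 2 D7E cultures that had a value, against 0.25, 0.02 and -0.14 in D7F (difference -1.69, SE 0.28, adjusted p = 0.0356). Hebp2, a heme-binding protein, stood at -1.07, -1.01 and -0.97 in D7E, against -0.03, -0.11 and -0.26 in D7F (difference -0.88, SE 0.12, adjusted p = 0.00856). In these 3 genes D7F lay near the level of IM2 or between it and D7E, or just above it in the case of Sod3 (IM2 -0.22).

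For Ces2g, Pvalb and Fn3k, also lower in D7E, the 2 lines stood on opposite sides of IM2. Ces2g, a carboxylesterase, stood at -0.50, -0.74 and -0.54 in D7E, against 0.92, 0.90 and 0.96 in D7F (difference -1.52, SE 0.18, adjusted p = 0.00172). Pvalb, the cytosolic calcium buffer parvalbumin of fast muscle fibres, stood at -0.45, -0.52 and -0.88 in D7E, against 0.47, 0.69 and 0.57 in D7F (difference -1.19, SE 0.17, adjusted p = 0.0104). Fn3k, a kinase that helps to remove sugar from glycated proteins, stood at -0.45, -0.50 and -0.60 in D7E, against 0.51, 0.55 and 0.37 in D7F (difference -0.99, SE 0.12, adjusted p = 0.0035). IM2 stood at 0.18 for Ces2g, 0.01 for Pvalb and 0.03 for Fn3k. A part I probe with no gene name stood at -1.57, -1.48 and -1.11 in D7E, against -0.48, -0.46 and -0.52 in D7F (difference -0.91, adjusted p = 0.0471), with both lines below IM2 (0.07). Over all 22 probes, the mean of IM2 lay between the 2 lines for 10, on the D7F side for 8 and on the D7E side for 4.

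These calls rest on 3 cultures a line, and several depended on 1 of them. Scn10a, Lrrn1, Cdkn1c, Prr32, Ces2g and Fn3k passed in each of the 6 fits that left out 1 D7E or D7F culture, with adjusted p of at most 0.0284. Of these, Ces2g did not pass without the 9 arrays of lowest quality, none of which was of D7E or D7F (0.162), and Fn3k did not with D7E and D7F alone in the model (0.0973). On arrays of 1 dye alone, Lrrn1 passed with either dye, and Scn10a did not pass on Cy5 arrays (adjusted p = 0.385). Cdkn1c (0.0674 on Cy5 and 0.148 on Cy3 arrays), Prr32 (0.17 and 0.0517), Ces2g (0.17 and 0.493) and Fn3k (0.0757 and 0.0632) passed with neither dye. Without culture 2 of D7F, 7 probes passed in place of 22, and Pvalb (adjusted p = 0.0672), Hebp2 (0.0541), Rbms1 (0.0541) and Loxl2 (0.0561) were among those that did not. Loxl2 also failed without culture 1 of D7E (0.0557). Pfkl failed without any 1 of the 6 cultures (adjusted p up to 0.211), and Sod3 without any D7F culture (up to 0.162). Cox8c failed without any D7E culture (up to 0.0994). Vapb failed without any D7F culture or without culture 1 or 2 of D7E (up to 0.171), Ywhab without any D7F culture or culture 1 of D7E (up to 0.098), and Kcnmb4 without any D7F culture or culture 2 or 3 of D7E (up to 0.107). Cav1 failed without any culture except culture 3 of D7E (up to 0.211), and both Cdkn2c and Spink4 without culture 1 or 2 of D7E or culture 2 or 3 of D7F (up to 0.154 and 0.0827). The count was 12 without culture 1 of D7E, 13 without culture 1 of D7F and 12 without culture 3 of D7F. With IM2 left out of the model, a choice made after the data were seen, 23 probes passed, 17 higher and 6 lower in D7E, and 16 of them were among the 22. Kcnmb4 (adjusted p = 0.0578), Cav1 (0.106), Pfkl (0.0687), Cdkn2c (0.0614) and Sod3 (0.06) did not pass there.

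The wild-type pair asks whether the same genes follow the level of the normal protein. Between WTA and WTD 172 probes passed (1.77%), and the mutant difference departed from the wild-type difference at 230 (2.37%), 82 of them with a higher and 148 with a lower D7E minus D7F. The excess of lower ones depended on the processing: 59 were higher and 48 lower without the 9 arrays of lowest quality, 33 and 33 with 1 dye orientation accepted, and 34 and 45 with values at the limits kept. Of the 22 probes that separated D7E from D7F, 5 also passed between WTA and WTD with the same sign, 11 passed with the opposite sign and 6 did not pass there. The 2 pairs share no culture. Over all 9719 probes the 2 differences correlated at r = -0.144, with each culture set against the same reference RNA.

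Among the genes whose high and low lines differed in the same direction in both pairs were Loxl2, Vapb, Ywhab and Sod3. Loxl2 was higher in the high line by 1.92 in the mutant and 1.60 in the wild-type pair (WTA against WTD, adjusted p = 0.0104). Its means were 0.21 in D7E and -1.71 in D7F, -0.42 in WTA and -2.02 in WTD, and 0.01 in IM2. Thus IM2, the line lowest in Pabpn1, stood nearer to the high lines. The Loxl2 probe is on part II, so with that part turned it would be lower in the high line of both pairs. Vapb was higher by 0.84 and 1.15 (adjusted p = 0.00112), and Ywhab by 0.66 and 0.59 (adjusted p = 0.0091). Sod3 was lower in the high line of both pairs, with a WTA minus WTD difference of -1.18 (adjusted p = 0.0371). For none of these 4 did the difference between the pairs pass, with adjusted p from 0.559 for Vapb to 0.877 for Ywhab. In Ywhab the level lay at 0.81 in D7E and 0.15 in D7F, and at 0.91 in WTA and 0.32 in WTD, against -0.03 in IM2. The means stood in the same order as those of Pabpn1, and the cultures of D7E and WTA overlapped.

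The larger set ran the other way. Cdkn1c was 1.06 in D7E and -0.32 in D7F, but -0.30 in WTA and 1.45 in WTD, so its difference of 1.38 in the mutant pair stood against -1.75 (adjusted p = 7.07e-05) in the wild-type pair. Scn10a (1.89 against -1.61), Kcnmb4 (1.61 against -1.61), Lrrn1 (1.51 against -1.44), Spink4 (1.46 against -1.11) and Prr32 (1.28 against -1.49) had the same layout, with D7E and WTD above D7F and WTA. Ces2g, Pvalb, Pfkl and Cdkn2c had the inverse layout, with D7F and WTA above D7E and WTD. Pvalb averaged -0.62 in D7E and 0.58 in D7F, and 0.54 in WTA and -1.69 in WTD. The difference between the pairs passed for each of these 10 named genes, with adjusted p from 1.25e-05 for Prr32 and Cdkn1c to 0.000835 for Spink4. Their 4 transfected lines thus did not rank by the labelled level of Pabpn1. By its measured level, D7E and WTD are the middle lines, between WTA above and D7F below, and the cultures of D7E and WTD overlapped. Whether that level has a part in the layout of these genes was not tested, and other properties of the lines cannot be told apart from it.

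A further group separated the mutant pair while the wild-type pair did not pass. Rbms1 differed by 1.03 in the mutant and 0.15 in the wild-type pair, Fn3k by -0.99 and 0.18, Hebp2 by -0.88 and 0.16, Cav1 by -1.64 and 0.54, and Cox8c by 1.03 and -0.09. The test of the difference between the pairs passed for each of them, with adjusted p of 0.0419, 0.00377, 0.0081, 0.0196 and 0.0285 in that order. Fn3k stood at -0.52 in D7E against 0.48 in D7F, 0.39 in WTA, 0.21 in WTD and 0.03 in IM2, so D7E was the line that lay apart. Rbms1 stood at 0.23 in D7E and -0.80 in D7F, with WTA (-0.20), WTD (-0.35) and IM2 (-0.02) between them.

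**Figure D2:**
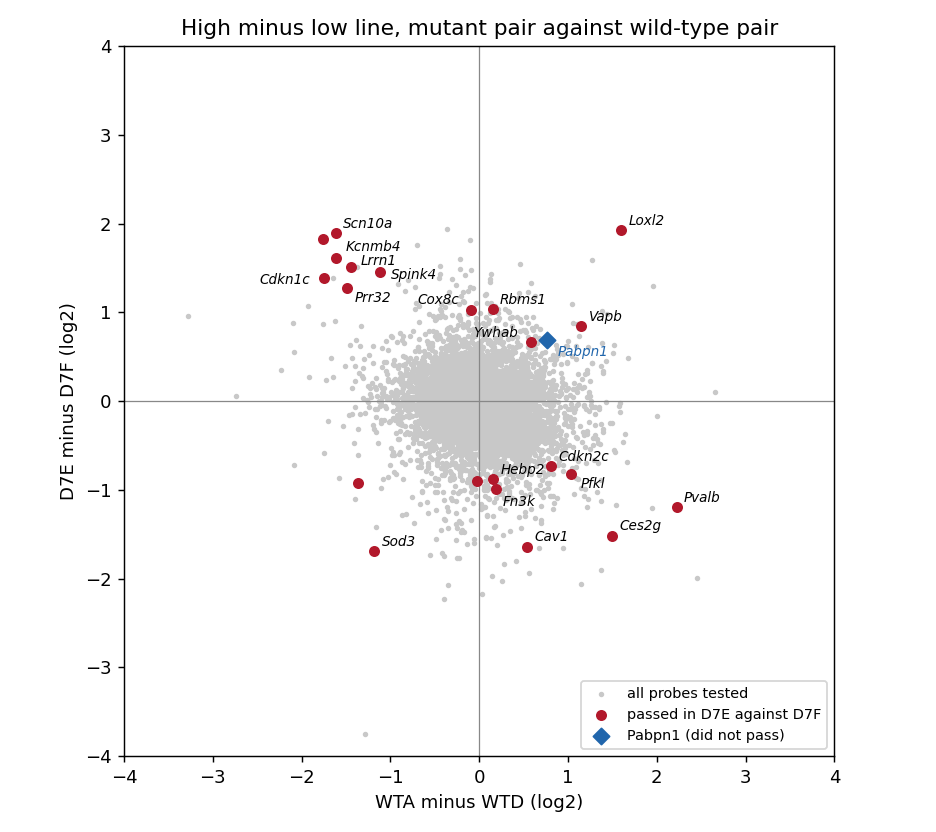
Difference between the high and the low line for each of the 9719 probes, with WTA minus WTD on the horizontal and D7E minus D7F on the vertical axis (log2). Red points are the 22 probes that passed in D7E against D7F and the blue diamond is Pabpn1 (0.76, 0.69), which lies beside Ywhab and Vapb, while 11 red points lie in the upper left and lower right quadrants with both differences past the threshold.

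**Figure D3:**
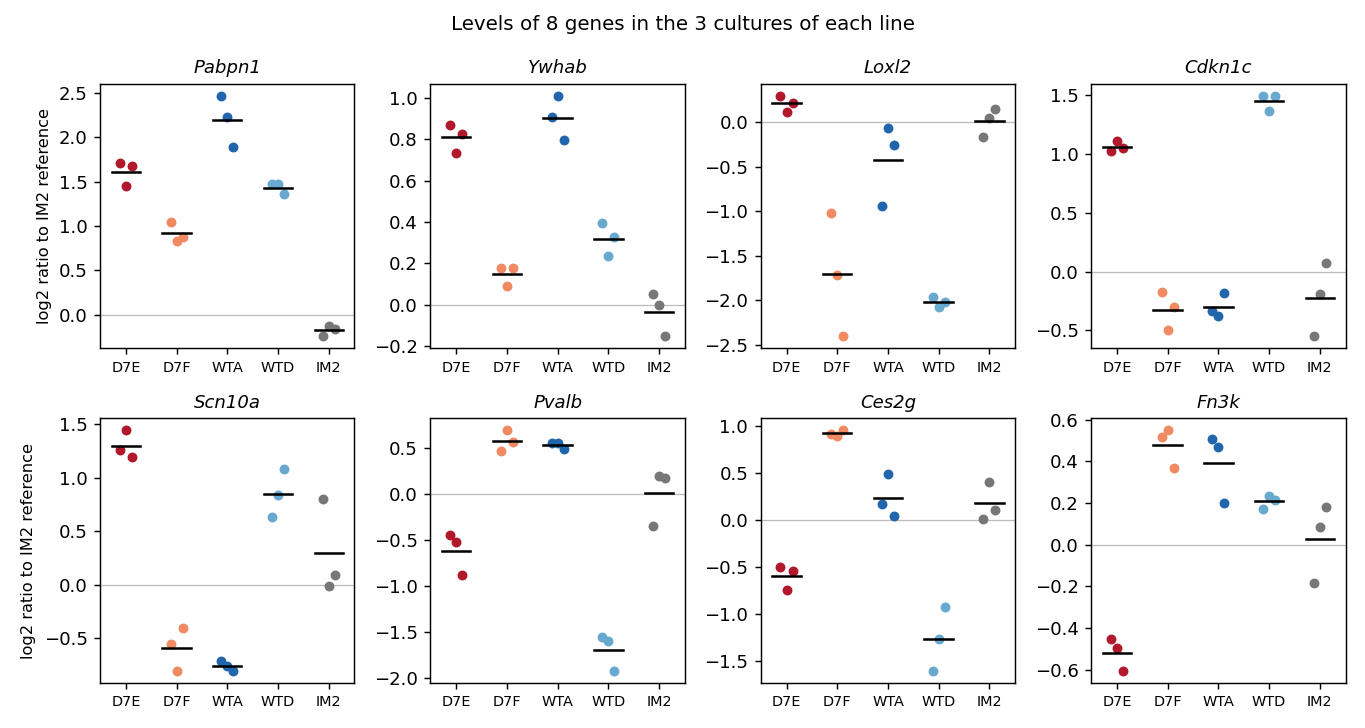
Level of 8 genes in the 3 cultures of each line, as log2 ratio to the IM2 reference, with D7E left of D7F, WTA left of WTD and IM2 last. Points are cultures and bars are means. Pabpn1, Ywhab and Loxl2 are higher in the high line of both pairs, Cdkn1c and Scn10a are high in D7E and WTD, Pvalb and Ces2g are low in these 2 lines, and Fn3k is low in D7E (-0.52).

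Gene lists were then read for changes spread over many members, by counts and medians with no test of a list. Counts at unadjusted p under 0.05 are to be read beside 6.56% lower and 3.07% higher of all probes tested. Of the 1036 listed genes tested 6 passed, beside 22 of 9719 probes (0.226%): Loxl2, Cdkn1c, Cdkn2c, Pvalb, Pfkl and Sod3. The list of hypoxia-responsive and glycolytic genes had the lowest median of the 29 pathway lists. Its glycolytic members serve the switch to anaerobic energy supply that hypoxia-inducible factors direct. Of 30 tested members, 24 had a negative difference, and the median was -0.29 beside -0.03 over all probes. Of the 25 members measured in all 6 cultures, 11 lay lower in D7E without overlap and 1 higher, beside 12.1% lower and 6.36% higher of all probes so measured. At unadjusted p under 0.05, 8 members were lower and 1 higher. Pfkl, the liver isoform of phosphofructokinase that commits glucose to glycolysis, was the member that passed. It stood at -1.46, -1.31 and -1.26 in D7E, against -0.64, -0.37 and -0.57 in D7F (difference -0.82, SE 0.14, adjusted p = 0.0369). Adm, Ndrg1 and Bnip3 were named after their values were seen. Adm, which encodes the vasodilator peptide adrenomedullin, stood at -3.85, -2.79 and -3.37 in D7E, against -2.01, -2.33 and -2.10 in D7F (difference -1.19, adjusted p = 0.113). Adm passed in 1 of 21 alternative fits, that without culture 2 of D7E (adjusted p = 0.0374), and its adjusted p reached 0.96. Bnip3, a mitochondrial mitophagy receptor, stood at -2.04, -1.87 and -2.26 in D7E, against -1.43, -1.45 and -1.66 in D7F (difference -0.55, adjusted p = 0.404). Both lines were far below IM2 in these 2 genes, at -0.12 for Adm and 0.11 for Bnip3. Ndrg1, a stress-induced protein, averaged -3.16 in D7E and -2.49 in D7F (difference -0.67, adjusted p = 0.327), and a part II probe of it differed by -0.64 (adjusted p = 0.699).

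The promoters of the first members by p with an entry in the RefSeq table (GRCm38.p6) are shown because these genes lay on the same side in D7E. The core of the hypoxia response element was searched as ACGTG and GCGTG on both strands, and matches are in capitals. Each sequence is the 250 bases before the start of the gene, on the gene's strand. Pfkl lies on the minus strand at chr10:78009808-78010057, Adm on the plus strand at chr7:110627407-110627656 and Bnip3 on the minus strand at chr7:138909507-138909756.
Pfkl: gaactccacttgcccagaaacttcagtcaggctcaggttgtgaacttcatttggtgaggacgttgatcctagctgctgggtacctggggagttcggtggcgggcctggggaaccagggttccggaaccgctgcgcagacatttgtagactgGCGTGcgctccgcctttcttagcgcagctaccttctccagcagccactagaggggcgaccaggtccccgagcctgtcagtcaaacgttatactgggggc
Adm: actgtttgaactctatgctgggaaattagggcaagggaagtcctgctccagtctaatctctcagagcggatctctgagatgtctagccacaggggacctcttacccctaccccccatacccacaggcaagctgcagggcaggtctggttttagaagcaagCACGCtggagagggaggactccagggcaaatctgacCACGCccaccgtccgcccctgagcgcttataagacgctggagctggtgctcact
Bnip3: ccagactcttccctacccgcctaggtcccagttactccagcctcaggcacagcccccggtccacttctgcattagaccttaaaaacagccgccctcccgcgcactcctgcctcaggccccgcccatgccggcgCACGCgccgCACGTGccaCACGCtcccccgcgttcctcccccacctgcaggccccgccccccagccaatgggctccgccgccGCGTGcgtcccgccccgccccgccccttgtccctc
The window of Pfkl held 1 match, that of Adm 2 and that of Bnip3 5, counting overlapping ones. At least 1 match was present in 38.6% of the 27025 promoters of this length given by RefSeq, beside 55.0% of the promoters of tested genes and 21 of 26 (80.8%) of those of tested list members. A match is a stretch of letters and not a measured binding site.

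The wild-type pair did not share the sign of this list, whose median WTA minus WTD difference was 0.37. Pfkl was higher in WTA than in WTD by 1.04 (adjusted p = 0.002), Bnip3 by 1.52 (adjusted p = 0.00179) and Adm by 1.21 (adjusted p = 0.0343). The difference between the pairs passed for Pfkl (adjusted p = 0.000448), Bnip3 (0.00268) and Adm (0.00492) and not for Ndrg1 (0.078). The size of the list's shift depended on array scaling and on a few arrays: the median was -0.10 with arrays centred and scaled, where Ndrg1 differed by 0.0034 and Pfkl did not pass (adjusted p = 0.428). Left out after the data were seen, the 3 D7E and D7F arrays with over 15% of values at the limits took it to -0.15. It stayed negative in each of 21 alternative fits.

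Matrix genes had more negative than positive differences, as did all probes, of which 55.1% were negative. Of 33 tested collagens and collagen-processing genes, Loxl2 passed as higher in D7E and none passed as lower, 21 differences were negative and the median was -0.17. Of 30 members with all 6 cultures, 10 lay lower without overlap and 1 higher, beside 12.1% lower and 6.36% higher of all probes so measured. At unadjusted p under 0.05 in limma, 7 of the 33 were lower and 1 higher, beside 6.56% and 3.07% of all probes. Col6a1, a chain of the microfibrillar type of collagen around muscle fibres, stood at -2.02, -1.70 and -1.17 in D7E, against -0.80, -0.50 and -1.04 in D7F (difference -0.85, adjusted p = 0.385). Pcolce, an enhancer of procollagen processing, stood at -1.27, -1.34 and -1.14 in D7E, against -0.55, -0.44 and -0.76 in D7F (difference -0.67, adjusted p = 0.135). Plod1, a lysyl hydroxylase, differed by -0.45 (adjusted p = 0.291). With arrays centred and scaled 17 of the 33 were negative and the median was -0.03, that of all probes being -0.01. Of these collagen genes Col6a1, Pcolce and Plod1, and the matrix genes Thbs2, Fbln5 and Lamc1 below, were named after their values were seen.

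Among 44 other matrix proteins, proteases and inhibitors none passed, 27 differences were negative and the median was -0.10. Of the 35 measured in all 6 cultures, 10 lay lower and 5 higher without overlap, beside 12.1% and 6.36% of all probes so measured. At unadjusted p under 0.05 in limma, 8 of the 44 were lower and 4 higher, beside 6.56% and 3.07% of all probes. Tgfbi, a secreted adhesion protein induced by TGF-beta, stood at -0.48, -0.41 and -0.46 in D7E, against 0.56, 0.68 and 0.29 in D7F (difference -0.96, SE 0.21, adjusted p = 0.129). Tgfbi passed in 1 of 21 alternative fits, that without the 9 arrays of lowest quality (adjusted p = 0.0446), and its adjusted p reached 0.745. Thbs2, an antiangiogenic matricellular protein, stood at -1.50, -1.14 and -1.22 in D7E, against -0.41, -0.49 and -0.60 in D7F (difference -0.79, adjusted p = 0.133). Fbln5, an elastic fibre protein, differed by -0.73 (adjusted p = 0.205), whereas Lamc1, a laminin chain of basement membranes, differed by 0.37 (adjusted p = 0.234). Fibroblast markers lay on the same side: 9 of 11 tested markers had a negative difference, none passed (2 lower at unadjusted p under 0.05), and the median was -0.30. Their part in the matrix differences was not tested. Their median level was -0.80 in D7E and -0.43 in D7F. Among them Fap, a fibroblast surface protease, stood at -0.98, -1.99 and -3.71 in D7E, against -0.35 and -0.50 in the 2 D7F cultures with a value (difference -1.80, SE 0.61, adjusted p = 0.388).

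**Figure D4:**
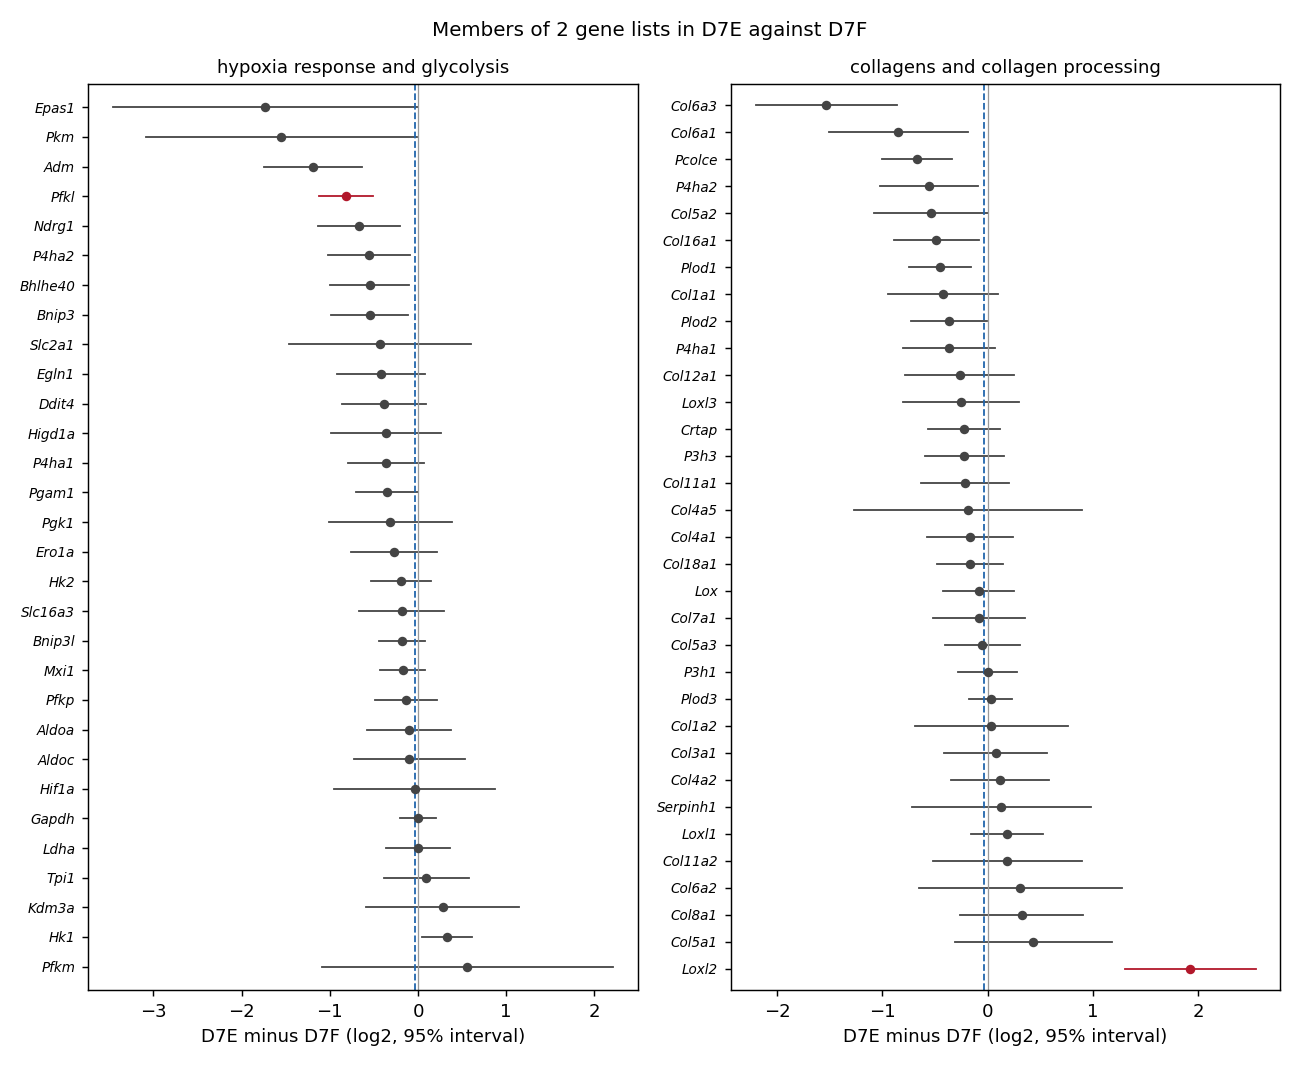
D7E minus D7F difference (log2) with its 95% interval for the 30 tested members of the hypoxia and glycolysis list (left) and the 33 of the collagen list (right), sorted from lowest at the top. Red marks Pfkl (-0.82) and Loxl2 (1.92), which passed, the solid line is 0 and the dashed line the median of all probes (-0.03). Of the points 24 on the left and 21 on the right lie below 0.

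Muscle genes gave few differences and no common direction. Of 39 sarcomere genes of the thin filament, Z-disc and M-band none passed, 21 differences were positive and the median was 0.02. At unadjusted p under 0.05 in limma 3 were higher and 2 lower. Csrp3, a Z-disc LIM protein, stood at 0.35, 0.34 and 0.29 in D7E, against -0.23, -0.39 and -0.21 in D7F (difference 0.61, SE 0.12, adjusted p = 0.0693). It passed in 3 of 21 alternative fits, such as that without IM2 in the model (adjusted p = 0.0468). Tmod4, which caps thin filaments in skeletal muscle, ran the other way at 1.04, 0.73 and 0.70 in D7E, against 1.23, 1.58 and 1.39 in D7F (difference -0.57, adjusted p = 0.21). Ankrd1, a stretch-responsive titin-binding protein (0.81, adjusted p = 0.303), and Acta1, skeletal alpha-actin (0.34, adjusted p = 0.436), had positive differences. Tmod4, Ankrd1 and Acta1 were named after their values were seen, as were Myf6, Id3, Mef2d, Sln, Cacng6, Fabp3, Lama2, Utrn and Sspn below.

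Myogenic and fusion genes, 37 tested, had a median of 0.06 and none passed, with 4 higher and 2 lower at unadjusted p under 0.05 in limma. Myf6, a myogenic regulatory factor of maturing fibres, stood at 0.11, 0.05 and 0.49 in D7E, against 0.76, 0.87 and 0.66 in D7F (difference -0.55, adjusted p = 0.133). Myf6 passed in 1 of 21 alternative fits, that without culture 3 of D7E (adjusted p = 0.0356), and its adjusted p reached 0.769. Id3, an inhibitor of these factors, stood at 0.25, 0.11 and -0.03 in D7E, against -0.25, -0.64 and -0.50 in D7F (difference 0.57, adjusted p = 0.209). Jam2, an adhesion molecule of the muscle and endothelial surface, stood at 0.94, 0.83 and 0.94 in D7E, against 0.37, 0.20 and 0.29 in D7F (difference 0.61, SE 0.11, adjusted p = 0.0645). Jam2 passed in 3 of 21 alternative fits, among them that with arrays centred (adjusted p = 0.0295). Mef2d, a muscle transcription factor, differed by -0.43 (adjusted p = 0.46).

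Calcium handling genes, 17 tested, included Pvalb as the member that passed, and their median was 0.00. Sln, sarcolipin, which regulates the calcium pump, differed by 0.66 (adjusted p = 0.253) and Cacng6, a calcium channel subunit, by -0.39 (adjusted p = 0.413). Of 8 myosin genes none passed (median -0.10), and Myl2, a slow and cardiac light chain, stood at 0.37, 0.13 and 0.34 in D7E, against 1.10, 0.96 and 0.65 in D7F (difference -0.62, adjusted p = 0.538). Of 25 muscle energy genes none passed (median 0.00), with Slc2a4, the insulin-regulated glucose transporter, at -0.56 (adjusted p = 0.245) and Fabp3, a fatty acid carrier, at -0.36 (adjusted p = 0.46). Of 13 dystrophin complex genes 10 had a negative difference and none passed (median -0.10). Dmd, dystrophin itself, stood at -0.59, -0.42 and -0.49 in D7E, against -0.23, -0.17 and -0.37 in D7F (difference -0.24, adjusted p = 0.506), and Lama2 (-0.22), Utrn (-0.34) and Sspn (-0.27) had adjusted p from 0.543 to 0.657. At unadjusted p under 0.05 in limma, 0 myosin genes, 2 energy genes (both lower) and 1 dystrophin complex gene (lower) were found.

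Genes of RNA processing, in which PABPN1 acts, gave no call. Of 33 genes of polyadenylation, poly(A) binding and deadenylation none passed, the median was -0.03, and at unadjusted p under 0.05 in limma 1 was higher and 2 were lower. Papola, the canonical poly(A) polymerase that PABPN1 stimulates, stood at -0.77, -0.77 and -0.50 in D7E, against -0.23, -0.34 and -0.41 in D7F (difference -0.35, SE 0.11, adjusted p = 0.327). Btg2, which promotes deadenylation (-0.32, adjusted p = 0.492), and Pcf11, a cleavage factor subunit (0.43, adjusted p = 0.508), were named after their values were seen. Of 66 splicing factors none passed, although 48 differences were positive, with a median of 0.07 and 3 higher and 3 lower at unadjusted p under 0.05 in limma. Prpf6, a protein of the tri-snRNP, stood at -0.69, -0.40 and -0.52 in D7E, against 0.01, 0.24 and 0.01 in D7F (difference -0.63, SE 0.14, adjusted p = 0.127). Syncrip, an RNA-binding hnRNP protein (0.27, adjusted p = 0.377), and Snrpn, an snRNP core protein (0.53, adjusted p = 0.38), were named after their values were seen.

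Protein quality control genes, of interest because the mutant protein aggregates, passed in no case. Among 37 proteasome genes 24 differences were positive (median 0.09). Psma1, a core particle subunit, stood at 0.28, 0.21 and 0.14 in D7E, against -0.25, -0.33 and -0.10 in D7F (difference 0.44, adjusted p = 0.117), and Psmd13, a regulatory particle subunit named after its values were seen, differed by 0.26 (adjusted p = 0.429). Among 43 heat shock proteins and chaperones the median was -0.02. Bag1, a co-chaperone that exchanges nucleotide on Hsp70 proteins, stood at 0.77, 0.78 and 0.83 in D7E, against 0.09, 0.00 and 0.12 in D7F (difference 0.72, SE 0.14, adjusted p = 0.0973). Bag1 passed in 2 of 21 alternative fits, with IM2 left out of the model (adjusted p = 0.0152) and without the arrays of lowest quality (0.0132). Subunits of the cytosolic chaperonin, named after their values were seen, lay on opposite sides, Cct4 at 0.55 (adjusted p = 0.325) and Cct8 at -0.48 (adjusted p = 0.434). The medians were 0.02 for 56 ubiquitin genes, led by Ube2h (-1.09 over 2 D7E cultures, adjusted p = 0.186), -0.11 for 24 endoplasmic reticulum genes, led by Sil1 (-0.32, adjusted p = 0.213), and -0.02 for 31 integrated stress response genes, led by Atf3 (-0.42, adjusted p = 0.434). For 47 lysosome and autophagy genes, led by Ctsc (0.66, adjusted p = 0.198), the median was -0.00091. Unadjusted p in limma was under 0.05 as follows: 2 proteasome genes were higher and 0 lower, 2 chaperones higher and 1 lower, 2 ubiquitin genes higher and 3 lower, 1 endoplasmic reticulum gene higher and 1 lower, 0 integrated stress response genes higher and 2 lower, and 1 lysosome gene higher and 3 lower.

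The proliferation lists held no gene that passed. DNA replication genes, 43 tested, had a median of 0.05, and Pola1, the catalytic subunit of primase-polymerase alpha, had a difference of -0.65 over 2 D7E cultures (adjusted p = 0.326). Mitosis genes, 29 tested, had a median of -0.13, and Ncapd2, a condensin subunit, stood at -0.74, -0.73 and -1.00 in D7E, against -0.38, -0.35 and -0.60 in D7F (difference -0.38, adjusted p = 0.377). Both lists lay below IM2 at the median in both lines, at -0.46 in D7E and -0.43 in D7F for replication and at -0.60 in D7E and -0.55 in D7F for mitosis. For 38 genes of apoptosis and the p53 pathway the median was 0.001, and Fas, a death receptor, had a difference of -0.34 (adjusted p = 0.327). With unadjusted p under 0.05 in limma, 2 replication genes were higher and 3 lower, 3 mitosis genes lower, and 1 apoptosis gene higher and 2 lower.

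Ribosomal and respiratory chain genes showed small differences. Of 64 ribosomal protein genes none passed, the median was 0.03, and the lines did not overlap at 7.94% of members measured in all cultures, beside 18.4% of all probes. Rpl23 had the smallest p (difference -0.43, adjusted p = 0.134). Of 64 oxidative phosphorylation subunits none passed, the median was -0.02 and 3.33% did not overlap, with Ndufc2 of complex I at -0.43 (adjusted p = 0.329). At unadjusted p under 0.05 in limma, 2 ribosomal protein genes were higher and 2 lower, and 1 subunit of oxidative phosphorylation was lower.

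In the remaining lists Sod3 was the member that passed. Of 46 interferon and antigen presentation genes 32 had a negative difference (median -0.12), led by Trim25, a ubiquitin ligase of antiviral sensing (-0.29, adjusted p = 0.44). Of 20 cholesterol genes 15 were negative (median -0.11), against a median of 0.47 in the wild-type pair. Fdft1, squalene synthase, stood at 0.35, 0.22 and 0.43 in D7E, against 0.56, 0.77 and 0.69 in D7F (difference -0.34, adjusted p = 0.347), and Mvd, an enzyme of the mevalonate pathway named after its values were seen, differed by -0.36 (adjusted p = 0.377). Grb10, an adaptor that restrains insulin receptor signalling, stood at -1.77, -1.24 and -1.50 in D7E, against -0.81, -0.75 and -0.56 in D7F (difference -0.80, SE 0.19, adjusted p = 0.135), on a list of 12 insulin-like growth factor genes with a median of 0.14. That median was -0.051 with values at the limits kept, with 7 of the 12 negative, and lay between -0.128 and 0.267 over the 21 alternative fits. In those fits 7 of the 29 pathway lists kept a negative and 3 a positive median, and 19 had medians of either sign. Grem1, a secreted BMP antagonist (-1.14 over 2 D7E cultures, adjusted p = 0.324), led 38 TGF-beta, BMP and Wnt genes (median 0.02). Eed, a Polycomb subunit (0.54, adjusted p = 0.209), led 30 chromatin genes (median 0.00086). The 36 oxidative stress genes had a median of -0.02. Without adjustment, at p under 0.05 in limma, 2 interferon genes were lower, 1 cholesterol gene higher and 2 lower, 1 growth factor gene higher and 1 lower, 2 TGF-beta, BMP and Wnt genes higher and 4 lower, and 1 chromatin gene higher and 1 lower.

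**Figure D5:**
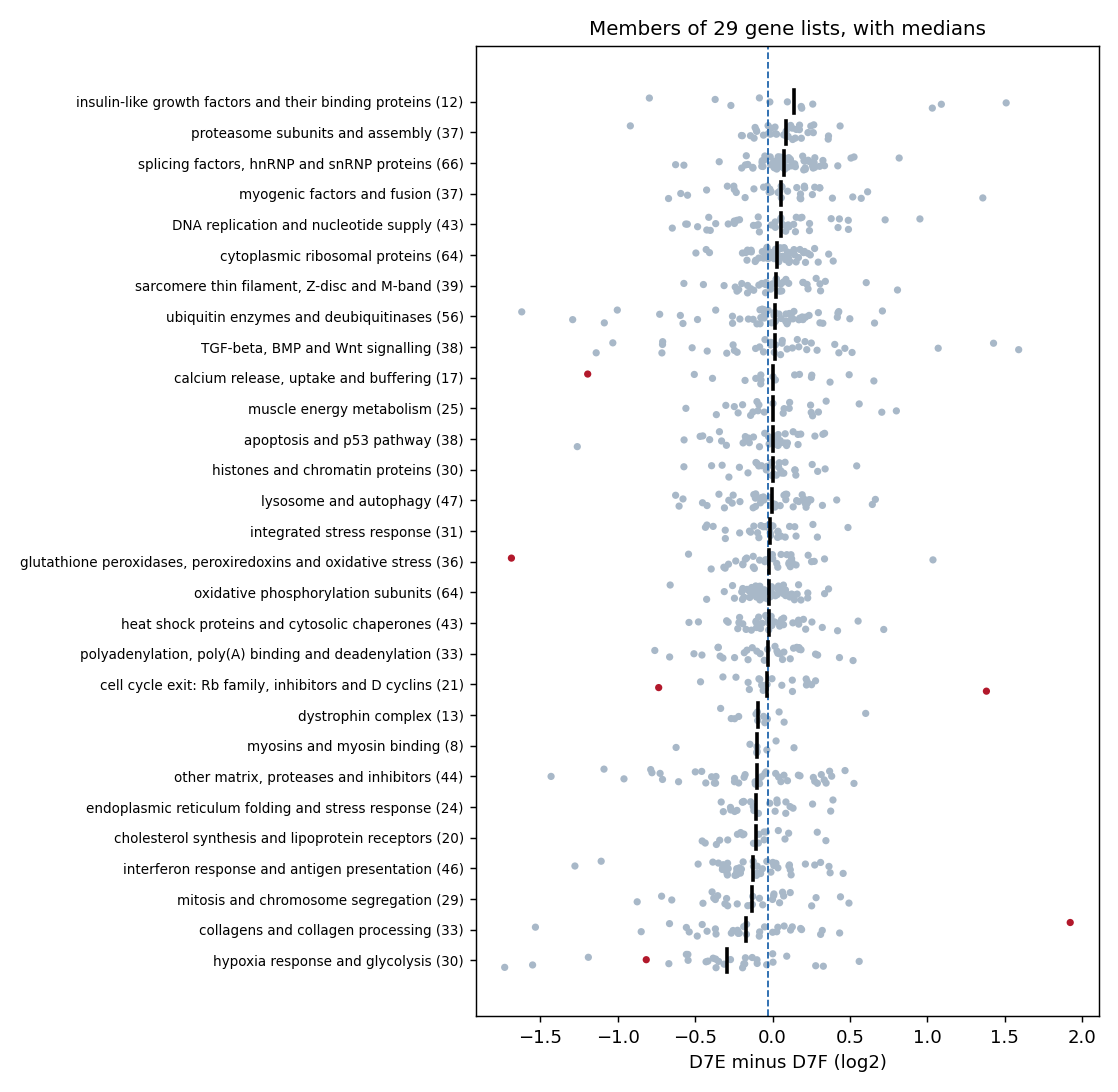
D7E minus D7F difference (log2) of the tested members of the 29 pathway lists, 1 row a list, with the number tested in parentheses. Points are genes, red where they passed, black bars are list medians and the dashed line is the median of all probes (-0.03). The medians run from -0.29 for hypoxia response and glycolysis to 0.14 for insulin-like growth factors (-0.051 with values at the limits kept), and 6 genes are red.

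Markers of other cell types were few among the tested probes and none passed, with 1 adipocyte marker higher and 1 bone and cartilage marker lower at unadjusted p under 0.05 in limma. The medians were 0.07 over 6 adipocyte, 0.11 over 7 smooth muscle, 0.05 over 4 endothelial and 0.09 over 5 neural and Schwann cell markers, and -0.63 over 2 bone and cartilage markers. By smallest p the members were Dgat2 (0.44), Acta2 (0.40), Flt1 (-0.50), Ngfr (0.42) and Matn1 (-0.55), and the leukocyte list had only Laptm5 (-0.17), with adjusted p from 0.429 to 0.99. The cultures of the lines overlapped at Acta2, Flt1, Ngfr, Matn1 and Laptm5.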

How the data were processed

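Each culture was hybridised with the IM2 reference on 2 spotted designs, once with either dye. Per the labels, part I used total RNA and part II polyA RNA. The deposited values lie between -2 and 2 and were read as log10 ratios, the base being inferred from their spread; the sources used here do not give scanner, normalisation or processing tools. If the base is another, every size and fold changes and the tests do not. Rows with identical values on all arrays of a part were counted as 1 probe. Values at -2 or 2 were dropped and the rest were multiplied by 3.3219 to give log2. The 2 dye orientations of a culture were averaged. The direction, culture over reference, was inferred from Pabpn1, which was positive on all part I arrays of transfected lines. Part II has no such probe. For WTA culture 3 on part I the channel label gave the dye, and for D7F culture 1 the title gave the level where a description differs.

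Genes were named through Entrez identifiers and RefSeq symbols (GRCm38.p6). A probe needed values in 2 or more cultures of each line, which left 4651 on part I and 5068 on part II. They were fitted per part with limma 3.58.1 in R 4.3.3, all 5 lines in 1 model. The labels do not say that cultures were grown separately, so p-values measure the spread between them. Named are Pabpn1, up to 12 probes that passed in each direction, passing list members (up to 4 in each direction) or the member with the smallest p, and genes said to be named after their values were seen. 1 named gene that passed is not reported here. The comparison, the lists and the rule were chosen with earlier results of these data known. In data simulated for this comparison over 9719 probes, 63 of 100 changes of 1 log2 unit and 88 of 100 of 2 units were called, with 8 false calls. The simulated noise was drawn independently for each culture at each probe's own spread, without dye, array or batch effects. These figures hold for that setting and that number of changed probes. Same-numbered D7E and D7F cultures deviated together at r = -0.0616 to 0.302, and different-numbered ones at r = -0.24 to 0.151. On part II the same-numbered values were all positive, at 0.302, 0.0597 and 0.163. Numbers were not taken to pair the cultures because the labels give them no meaning. With the number as a replicate block, 14 probes passed in place of 22. The number of arrays limits precision.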

Additional observations from a re-analysis of the deposited data

Results flagged for a closer look

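Each result here concerns a difference that was not the same in the mutant and in the wild-type pair, by limma's test of D7E minus D7F less WTA minus WTD (adjusted p under 0.05 over all probes). It passed for 230 probes (2.37% of those tested), and 1390 probes had p under 0.05 without adjustment. Of the 80 genes named in the text 36 were among those that passed. Most of these 80 were chosen by their D7E minus D7F difference, which is part of this test, so a high share follows from the choice. The values that follow are those double differences on the log2 scale, positive where D7E minus D7F was the higher.

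Among genes that passed between D7E and D7F, it was 3.50 for Scn10a, 3.22 for Kcnmb4, 3.13 for Cdkn1c, 2.95 for Lrrn1, 2.77 for Prr32, 2.57 for Spink4, 1.12 for Cox8c and 0.88 for Rbms1. It was -3.42 for Pvalb, -3.02 for Ces2g, -2.18 for Cav1, -1.85 for Pfkl, -1.55 for Cdkn2c, -1.18 for Fn3k and -1.04 for Hebp2.

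The other genes did not pass between D7E and D7F themselves. Muscle genes among them were Tmod4 (-2.10), Myf6 (-1.39), Slc2a4 (-1.34) and Fabp3 (-1.03) on the negative side, and Id3 (1.61), Csrp3 (1.29), Sln (1.18) and Jam2 (0.87) on the positive side. Hypoxia-responsive Adm (-2.40) and Bnip3 (-2.06), the matrix genes Thbs2 (-1.73) and Tgfbi (-1.32), and the cholesterol enzymes Mvd (-1.10) and Fdft1 (-1.03) were negative. So were Grb10 (-1.58), Ncapd2 (-0.94), Fas (-0.89) and Papola (-0.71). The smooth muscle actin Acta2 (1.26), Bag1 (1.01) and Psma1 (0.89) were positive.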

How the results depend on the processing

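As reported, 22 probes passed, among them 18 genes named by size and 6 listed genes, and 230 probes passed in the difference between the pairs. Probes passing, genes by size and listed genes numbered 6, 5 and 1 with D7E and D7F alone in the model, 2, 1 and 0 on Cy5 arrays alone, and 3, 2 and 0 on Cy3 arrays alone. Of 1036 listed genes, 80 had unadjusted p under 0.05 in limma on Cy5 arrays, beside 703 of all 12870 probes tested there. On Cy3 arrays 73 of the 1036 did, beside 665 of 12876 probes. Requiring values only in D7E and D7F gave 14 probes and 3 listed genes. Leaving out the 3 arrays with over 15% at the limits, a choice made after seeing the data, gave 13 probes (12 of the 22) and 10 genes by size. Accepting 1 dye orientation gave 11 genes by size, and keeping limit values, or centring and scaling, gave 3 listed genes. Centring alone gave 19 probes, 13 higher and 6 lower, beside 12 and 10.

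Culture numbers as a replicate block gave 14 probes (13 of the 22) and 136 in the difference between the pairs, which numbered 79 with limit values kept, 66 with 1 dye orientation accepted and 107 without the 9 arrays of lowest quality. Leaving out 1 culture at a time gave 7 to 20 probes, 6 to 15 genes by size, 1 to 6 listed genes and 91 to 284 probes between the pairs.

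Pabpn1 did not pass in any of 21 alternatives (adjusted p from 0.0522 to 0.755, differences from 0.437 to 0.773). Among the other named genes, the sign turned for Cox8c with limit values kept (-0.411), for Pola1 (0.170) and Ube2h (0.0067) on Cy5 arrays, for Laptm5 on Cy3 arrays (0.257) and for Ndrg1 with arrays centred and scaled (0.0034). The causes were not tested. The 3 cultures a line, the inferred log base and direction, and values lost at the limits bound what can be read.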
